A study of Rattus norvegicus with 48 samples.

Results

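The comparison described here set the regenerating liver of carbohydrate-fed rats at 72 h after partial hepatectomy (PHx) against that at 6 h. It covered 6 of the 48 animals in the series, 3 untreated rats at each time, and all 143 miRNAs in the deposited table, with no selection on their values made here. The paper describes a longer list of assayed miRNAs and does not state how those in the table were chosen. All animals were male Sprague-Dawley rats that were 8 to 14 wk old when feeding with the Lieber-DeCarli liquid diet began, and they were fed for 6 to 8 wk. In the carbohydrate group (CHO), 36% of the calories came from maltose-dextran in place of the ethanol that the pair-fed ethanol group (EtOH) received. The left lateral and medial lobes, 70% of the liver, were then removed, and the remnant was collected after 6 or 72 h. "Untreated" means that neither saline nor the antisense oligonucleotide against miR-21 (AM21) was injected. Different animals were killed at each time, so no rat was followed over time, and both groups carry the label of numbered set 4, a term that the labels do not explain. The other animals were EtOH-fed rats, rats at 0 and 24 h, and rats given saline or AM21. Of these, 6 EtOH-fed untreated rats at 6 and 72 h, also in set 4, are used below for the same contrast in the other diet.

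A miRNA is a short RNA that guides an Argonaute protein to messenger RNAs, chiefly by pairing of its seed (bases 2 to 8), and so lowers their translation or stability. miRNAs that share a seed can share targets and are grouped into families. After PHx the quiescent hepatocytes of the rat liver enter the cell cycle, in an early priming phase of cytokine and immediate early gene responses followed by DNA replication and, later, division of the nonparenchymal cells. The early time point of the contrast lies before the main wave of replication and the late one after it. The question was therefore which miRNAs stood at different levels in late and early regeneration on the control diet.

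Mature sequences were taken from RefSeq (rat assembly GRCr8), which gave 107 of the 143 miRNAs, 36 by the name itself and 71 by the usual arm of an older name. The table does not state the arm for those 71. The sequences below belong to the miRNAs on which the results turn, written from 5′ to 3′ with the seed in capitals. The first set was higher at 72 h, and miR-19a and miR-19b share one seed, as do miR-16 and miR-322.
miR-19a: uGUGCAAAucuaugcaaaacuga
miR-19b: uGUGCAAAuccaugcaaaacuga
miR-16: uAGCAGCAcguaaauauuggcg
miR-322: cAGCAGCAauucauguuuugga
miR-21: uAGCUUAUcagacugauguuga
miR-192: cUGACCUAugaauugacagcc
miR-101b: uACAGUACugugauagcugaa
miR-3559-5p: uGACAGACuuaguacuacauga
The second set was lower at 72 h, and miR-125a-5p and miR-125b-5p share one seed.
miR-451: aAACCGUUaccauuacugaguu
miR-144: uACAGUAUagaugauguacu
miR-181a: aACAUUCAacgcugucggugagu
miR-125b-5p: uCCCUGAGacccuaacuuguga
miR-125a-5p: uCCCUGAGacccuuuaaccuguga
miR-139-5p: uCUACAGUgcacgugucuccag
The third set shows relatives with one seed that stood on opposite sides of zero, the let-7 pair and the miR-34 pair.
let-7f: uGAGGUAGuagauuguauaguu
let-7e: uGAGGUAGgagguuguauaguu
miR-34a: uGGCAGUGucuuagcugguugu
miR-34c: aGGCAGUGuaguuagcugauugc

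In the NanoString nCounter assay, molecules are tallied by miRNA-specific coloured probes and not amplified. The authors deposited log2 CPM (counts scaled to a common total per library), in which 1 unit is a doubling, and the whole counts were recovered from them. The 3 animals at 6 h had total counts of 87009, 87256, and 134618, and the 3 at 72 h had 200312, 171919, and 209221. All 3 totals at 72 h lay above all 3 at 6 h, with a ratio of means of 1.88 (exact permutation test, two-sided, p = 0.1, the smallest that 3 against 3 can give). Because depth moved with time, the counts and a fit with depth as a covariate are given beside the results. The hepatocyte miRNA miR-122 took 58.8% ± 1.34 (SD, n = 3) of the counts at 6 h and 58.6% ± 2.74 (SD, n = 3) at 72 h (exact permutation test, two-sided, p = 1), so the defining miRNA of the labelled tissue took most counts at both times. No 2 animals of a group were alike within counting noise, with a chi-square per degree of freedom of 4.80 to 19.3 between them.

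At 72 h, 21 of the 143 miRNAs were higher than at 6 h (14.7%) and 23 were lower (16.1%), together 30.8%, at a Benjamini-Hochberg adjusted p under 0.05 from limma (57 at an unadjusted p under 0.05). The 3 animals at 72 h did not overlap the 3 at 6 h for 63 miRNAs (44.1%), which included all 44 that were called. Across all miRNAs the median difference was -0.01 on the log2 scale, a value that the TMM scaling of the deposited data holds near 0. Among those called, 6 miRNAs rose and 6 fell by more than 1 on the log2 scale. The animals were the only replicates, and in a whole-liver sample fewer cells of a type and less of a miRNA per cell cannot be told apart.

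**Figure D1:**
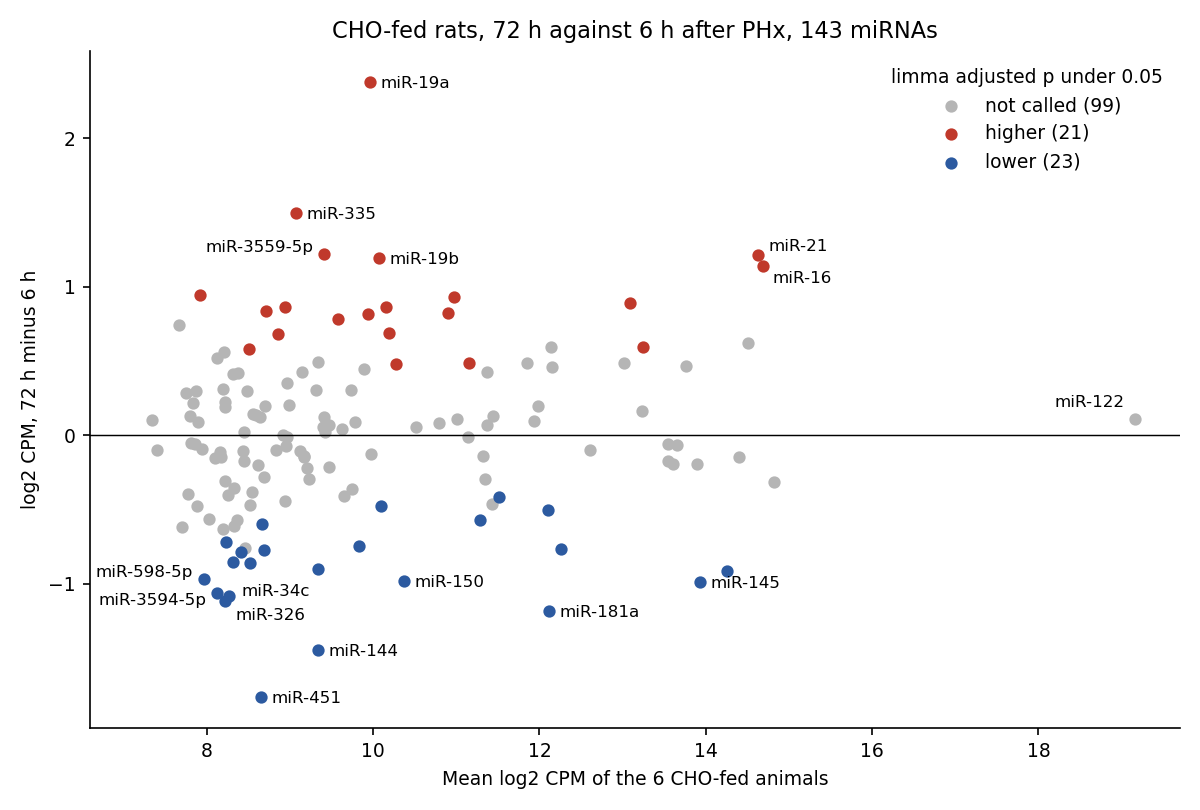
Difference between 72 and 6 h in CHO-fed rats (y axis, log2 CPM, 3 animals per time) against mean level (x axis, mean log2 CPM of the 6 animals) for 143 miRNAs. Red points (21) were called higher and blue points (23) lower by limma. miR-19a stands highest at 2.38 and miR-451 lowest at -1.76, while miR-122, far to the right, lies near zero at 0.11.

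The miRNAs of the miR-17/92 cluster held the largest rise. This cluster is one transcript that Myc induces and that yields several miRNAs. miR-19a was at 8.68, 8.56, and 9.07 log2 CPM in the animals at 6 h (replicates 4_1, 4_2, and 4_3, the order used throughout) and at 11.55, 10.86, and 11.04 at 72 h (replicates 4_7, 4_8, and 4_9). The groups lay far apart, and the difference was 2.38 ± 0.49 (SE, limma adjusted p = 0.00173), a 5.21-fold rise. In counts this was 37, 36, and 69 against 573, 323, and 405, with every late animal far above the early ones. miR-19b, which has the same seed, was at 9.05, 9.36, and 10.02 at 6 h and at 10.90, 10.49, and 10.62 at 72 h. It rose by 1.20 ± 0.30 (SE, adjusted p = 0.00599), without overlap, although replicate 4_3 at 6 h came close to the 72 h values.

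Differences were smaller for the other members of the cluster. In GRCr8, miR-17-5p, miR-19a, miR-20a, and miR-19b lie within 1 stretch of chromosome 15 (chr15:98587861-98588508). miR-17-5p and miR-19b also have a locus each on chromosome X (chrX:137343070-137343637), and the loci of these miRNAs cannot be told apart here. miR-17-5p was at 10.90 ± 0.04 (SD, n = 3) at 6 h and 11.39 ± 0.26 at 72 h, a difference of 0.49 (adjusted p = 0.0482). One probe reads both miR-20a and miR-20b, and its difference of 0.46 was not called (adjusted p = 0.0918), although the groups did not overlap. From the related miR-106b/25 cluster, miR-106b rose by 0.58 (adjusted p = 0.0399). In all, 4 of the 7 measured miRNAs of these clusters were called higher (against 14.7% of all miRNAs) and 0 lower, with a median difference of 0.49, against -0.01 over all miRNAs. The call of miR-17-5p was lost with the omission of any 1 animal other than replicate 4_7, and that of miR-106b with any other than replicates 4_3 and 4_8, whereas miR-19a and miR-19b kept theirs under every omission. miR-17-5p and miR-106b were also not called after scaling to the 100 highest probes or background subtraction, and miR-17-5p was not with RLE size factors or in a fit of the compared groups alone.

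In the family with the AGCAGCA seed, miR-16 and miR-322 were called higher, 2 of 5 measured members (against 14.7% of all miRNAs). miR-16 is known to restrain cyclins D1 and E and Bcl2. It was at 14.01, 13.87, and 14.46 log2 CPM at 6 h and at 15.21, 15.18, and 15.36 at 72 h. The 2 groups were well separated, and the rise was 1.14 ± 0.23 (SE, adjusted p = 0.00171), with mean counts of 1962 and 7274. miR-322 rose by 0.79 (adjusted p = 0.0126), though the call was lost without 6 h replicate 4_1 or 4_2. miR-15b and miR-195 stood 0.49 and 0.43 higher without being called, and over the 5 measured members of the family the differences ran from -0.11 to 1.14 with a median of 0.49. miR-15b lies beside miR-16 in the genome (chr2:155555197-155555364 for the pair). miR-16 is also abundant in red blood cells, whose own miRNAs are given below, and the cell source of its rise was not tested.

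miR-21, a miRNA known for promoting growth, was at 13.66, 14.02, and 14.40 at 6 h and at 15.11, 15.22, and 15.39 at 72 h. All 3 late animals lay above all early ones, by 1.21 ± 0.29 (SE, adjusted p = 0.00407), or 2.32-fold. The spread at 6 h was wider (SD 0.37) than at 72 h (SD 0.14). In counts, the mean was 1865 at 6 h and 7223 at 72 h.

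Hepatocyte miRNAs did not move as one. miR-122, which dominates the miRNA content of hepatocytes and sustains their lipid metabolism, stood at 19.11 ± 0.10 (SD, n = 3) at 6 h and 19.22 ± 0.14 at 72 h, a difference of 0.11 with a 95% interval of -0.27 to 0.48 (adjusted p = 0.693). miR-192, made mainly in liver, gut, and kidney, was at 12.43, 12.68, and 12.81 at 6 h and at 13.53, 13.56, and 13.50 at 72 h. It rose by 0.89 (adjusted p = 0.00786), and the late animals lay close together (SD 0.03). miR-194, which lies next to it (chr1:212994038-212994252), stood 0.47 higher with a 95% interval of -0.01 to 0.95 and was not called (adjusted p = 0.13). Of the 3 hepatocyte miRNAs listed, 1 was therefore called higher and 0 lower.

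The remaining large rises came from miRNAs of varied origin. miR-335, encoded within the imprinted gene Mest, was at 8.64, 8.20, and 8.14 at 6 h and at 9.77, 9.32, and 10.38 at 72 h. Its 1.50 rise (adjusted p = 0.00391) was second to that of miR-19a, with the late animals spread by an SD of 0.53. miR-3559-5p stood at 8.79, 8.78, and 8.82 at 6 h and at 10.05, 9.83, and 10.16 at 72 h, a rise of 1.22 (adjusted p = 0.0023). The early animals were thus nearly equal. miR-142-3p, a miRNA of blood-forming cells, rose by 0.87 (adjusted p = 0.0156), from 9.57, 9.31, and 10.28 to 10.75, 10.41, and 10.61. Replicate 4_3 at 6 h lay just under the lowest late animal, and the call was lost without 6 h replicate 4_1 or 4_2 or 72 h replicate 4_7.

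The miR-101 pair, known to repress the histone methyltransferase Ezh2, stood higher together. miR-101b rose by 0.93 ± 0.35 (SE, adjusted p = 0.0482), and the call was lost with the omission of any 1 of the 6 animals. miR-101a, at 7.50, 7.22, and 7.16 at 6 h and at 8.16, 8.03, and 7.92 at 72 h, stood 0.74 higher without overlap and lay just outside the threshold (adjusted p = 0.0554). miR-29b, of a family that targets collagens, rose by 0.81 (adjusted p = 0.019), a call lost without 6 h replicate 4_1 or 4_2 or 72 h replicate 4_7, while miR-29c stood 0.59 higher (adjusted p = 0.15) and the abundant miR-29a 0.31 lower (adjusted p = 0.13). The family was therefore split, with 1 of 3 members called.

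The others among the 12 largest rises were miR-185 (0.94), miR-425 (0.86), and miR-374 (0.84), with adjusted p of 0.0046, 0.00391, and 0.00173. miR-185 was read from few counts, 21, 12, and 22 against 73, 47, and 68. The others called higher were miR-152 (0.82), miR-29b, miR-322, miR-130a (0.69), miR-674-3p (0.68), let-7f (0.60), miR-106b, miR-17-5p, and miR-28 (0.48). miR-28 lost its call with RLE size factors, scaling to the 100 highest probes, background subtraction, and a fit of the compared groups alone. Background subtraction also removed the calls of miR-130a and miR-674-3p. Omission of any 1 animal other than 6 h replicate 4_3 removed those of miR-28 and miR-130a. miR-152 lost its call without 6 h replicate 4_1 or 4_2 or 72 h replicate 4_8 or 4_9. For miR-674-3p the same held without 6 h replicate 4_2 or 72 h replicate 4_9. For all 21 the mean count rose by more than the ratio of the totals, by 2.39- to 9.16-fold. This restates the calls in counts, since a rise in values scaled to the total nearly requires it.

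**Figure D2:**
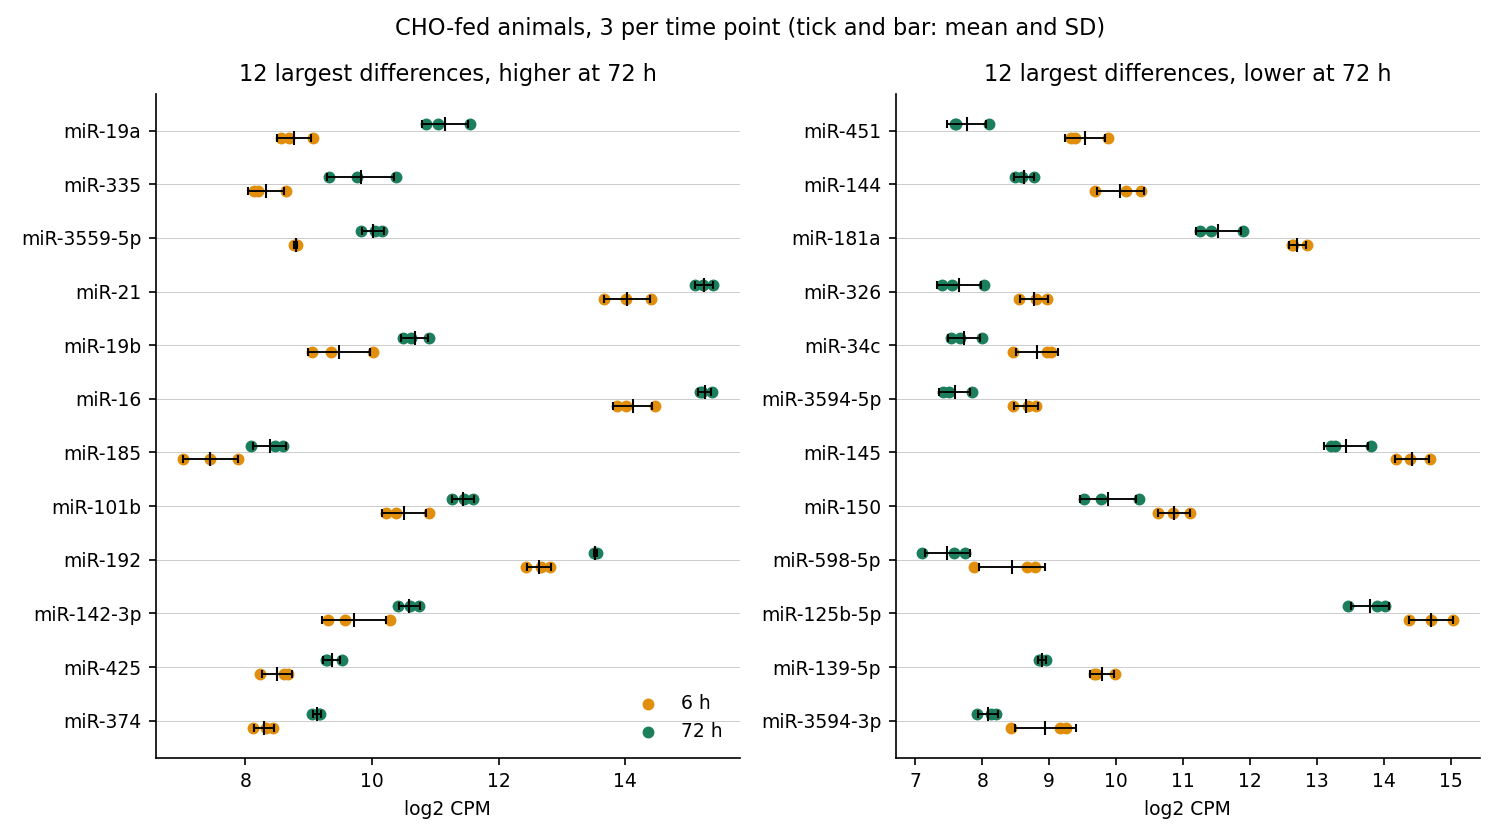
log2 CPM of each CHO-fed animal (points, 3 at 6 h in orange and 3 at 72 h in green) for the 12 largest rises (left) and the 12 largest falls (right), with ticks and bars for mean and SD. The 24 were picked among called miRNAs without overlap, so in each the animals of one time point lie wholly to one side of those of the other.

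The largest falls were those of the pair of miRNAs that mark red blood cells. miR-451 and miR-144 are made from a single erythroid transcript and lie beside each other in the genome (chr10:63459446-63459606). miR-451 was at 9.87, 9.33, and 9.38 log2 CPM at 6 h and at 8.10, 7.59, and 7.61 at 72 h, a fall of 3.39-fold (difference -1.76 ± 0.30, SE, adjusted p = 0.000461). Its counts also fell, from 85, 62, and 86 to 52, 33, and 37, although the totals rose. miR-144 was at 10.37, 9.68, and 10.14 at 6 h and at 8.59, 8.49, and 8.78 at 72 h (difference -1.44 ± 0.38, SE, adjusted p = 0.00786). Neither miRNA overlapped between the times. The summed level of the pair ran from 1465 to 2257 CPM in the animals at 6 h and from 550 to 661 CPM at 72 h, and whether the remnants held different amounts of blood was not tested.

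White blood cell miRNAs did not follow them. miR-150, found in mature lymphocytes and known to target Myb, fell by 0.98 on the log2 scale (adjusted p = 0.00391), from 10.85, 10.63, and 11.10 at 6 h to 9.78, 10.34, and 9.52 at 72 h, and miR-142-3p rose as given above. miR-223, of neutrophils and monocytes, stood 0.41 higher (adjusted p = 0.283), and miR-342-3p 0.21 lower (adjusted p = 0.542). The summed level of these 4 was 3208 to 4640 CPM at 6 h and 3204 to 3967 CPM at 72 h, so the ranges overlapped. miR-126, of endothelial cells, stood 0.62 higher, also without a call (adjusted p = 0.114). The 2 bile duct miRNAs and the 2 striated muscle miRNAs measured were not called either, with medians of 0.21 and -0.38.

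Among abundant miRNAs, miR-181a, miR-145, and the miR-125 pair fell. miR-181a, which tunes antigen receptor signaling in lymphocytes and is present in many tissues, was at 12.62, 12.86, and 12.64 at 6 h and at 11.42, 11.90, and 11.25 at 72 h. The groups lay well apart, with a difference of -1.18 ± 0.20 (SE, adjusted p = 0.000461), or a 2.27-fold fall. Its family member miR-181c stood 0.57 lower (95% interval of the difference -1.30 to 0.15, adjusted p = 0.247). miR-145, known for keeping smooth muscle cells differentiated, was at 14.40, 14.18, and 14.70 at 6 h and at 13.21, 13.82, and 13.28 at 72 h, a difference of -0.99 ± 0.20 (SE, adjusted p = 0.00171). Its cluster partner miR-143, also of smooth muscle, was at 8.10 ± 0.14 (SD, n = 3) at 6 h and 8.33 ± 0.18 at 72 h and so did not fall with it (difference 0.22, adjusted p = 0.535). Of the 4 mesenchymal cell miRNAs measured, miR-145 was the single one called, and miR-199a-3p (0.49) and miR-199a-5p (0.30) stood higher without a call.

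The miR-125 family is the mammalian counterpart of lin-4, the first miRNA found, and is linked to differentiation. miR-125b-5p was at 14.71, 14.38, and 15.04 at 6 h and at 14.02, 13.90, and 13.47 at 72 h (difference -0.91 ± 0.28, SE, adjusted p = 0.019), a call that was lost without 6 h replicate 4_1 or 4_3 or 72 h replicate 4_9. miR-125a-5p stood at 12.64 ± 0.22 (SD, n = 3) at 6 h and 11.88 ± 0.30 at 72 h (difference -0.76, adjusted p = 0.0126), a call lost without 72 h replicate 4_9. Both fell without overlap, and the third member, miR-351, differed by -0.11 and was not called, so that 2 of 3 were lower with a median of -0.76. miR-125a-5p shares a cluster on chromosome 1 with let-7e, which fell as well, by 0.48 on the log2 scale (adjusted p = 0.0156), and miR-99b, which stood 0.46 lower and was not called.

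miR-139-5p, encoded within Pde2a, fell by 0.90 on the log2 scale (adjusted p = 0.0023), from 9.69, 9.99, and 9.67 at 6 h to 8.86, 8.95, and 8.84 at 72 h. The late animals again lay close together. Smaller falls were those of miR-345-5p (-0.74), miR-196b (-0.60) and miR-10a-5p (-0.57), both encoded in Hox gene clusters, miR-23b (-0.50), and miR-151 (-0.41). miR-23b was the single one of 5 measured members of the miR-23/27/24 clusters to be called. The calls of miR-23b and miR-151 were lost with RLE size factors, background subtraction, and a fit of the compared groups alone, and that of miR-10a-5p with background subtraction. miR-151 and miR-10a-5p also lost theirs with the omission of any 1 animal, and miR-23b with any other than 6 h replicate 4_3. In set 4 alone miR-151 was not called either.

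Over 19 groups of 2 or more measured miRNAs with one seed, which held 52 miRNAs, 5 groups had 2 or more called members, and 1 of these, let-7, had calls in both directions. let-7f rose by 0.60 (adjusted p = 0.0216), let-7e fell, and the other 6 of the 8 members measured were not called, with a median of -0.14 for the family. The call of let-7f was lost without 6 h replicate 4_1 or 4_2 or 72 h replicate 4_9. That of let-7e was lost without 6 h replicate 4_1 or 72 h replicate 4_7 or 4_8, and in a fit of the compared groups alone. In the miR-34 pair, a family that p53 induces, miR-34c fell by 1.08 on the log2 scale (adjusted p = 0.00377), while miR-34a stood 0.56 higher without overlap but also without a call (adjusted p = 0.0576). All 5 measured members of the miR-30 family were left uncalled, between -0.30 and 0.44, as were those of the miR-26, miR-99, miR-103, miR-146, and miR-221 families. One of the 2 measured members was called higher in the miR-130 family (miR-130a) and in the miR-148 family (miR-152).

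Some falls rested on low counts that hardly moved. At 6 h the mean count was under 50 for 8 of the 21 rises and for 7 of the 23 falls, against 61 of all 143 miRNAs. A total of 9 of the 23 miRNAs called lower had from 26 to 63 counts in every one of the 6 animals: miR-326, miR-34c, miR-3594-5p, miR-598-5p, miR-3594-3p, miR-3585-5p, miR-208b-3p, miR-3596c, and miR-532-3p. Their mean counts were 36.3 to 56 at 6 h and 33 to 58 at 72 h. The totals rose 1.88-fold meanwhile, and their log2 CPM fell by about as much as the totals rose. miR-326, for example, had 45, 43, and 48 counts at 6 h and 35, 45, and 32 at 72 h, with log2 CPM of 8.96, 8.81, and 8.55 against 7.54, 8.03, and 7.40 (difference -1.12, adjusted p = 0.00599). The limit of 65 counts that defines these 9 was chosen after the counts were seen, and no negative control probes were used here, so whether such counts are background was not tested. Of the other 14 falls, miR-451, miR-144, miR-181a, miR-145, miR-150, miR-125b-5p, and miR-139-5p also had fewer counts at 72 h, and 7 had more. Both arms of the miR-532 hairpin were measured, and the 5p arm, miR-532-5p, differed by 0.07 (-0.0402 when scaled to the 100 highest probes) while the 3p arm, one of the 9, differed by -0.72.

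**Figure D3:**
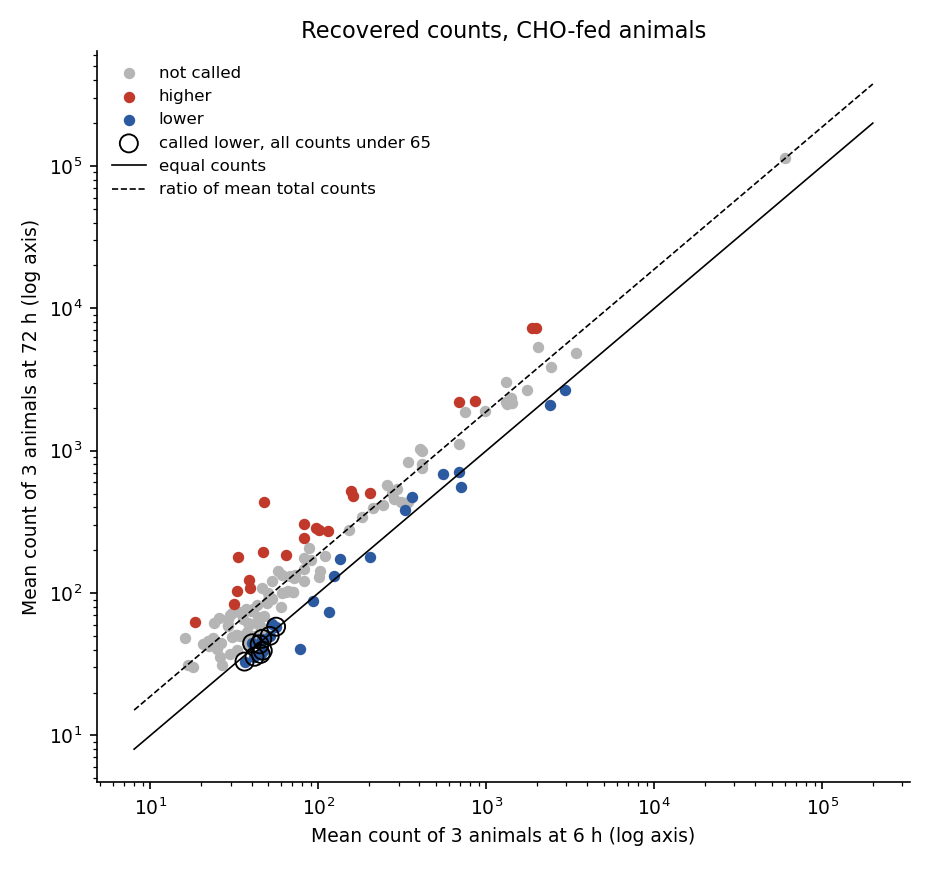
Mean recovered count of 3 CHO-fed animals at 72 h (y axis) against that at 6 h (x axis), both on log axes, for 143 miRNAs. The solid line marks equal counts and the dashed line the 1.88-fold ratio of the totals. Red points lie above the dashed line, which a rise in scaled values nearly requires. The 9 circled miRNAs, all called lower, lie near the solid line at counts under 65.

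With the log10 total count of each animal as a covariate, 8 miRNAs were called, and these were among the 44. They were miR-451 (-1.82), miR-144 (-1.79), miR-145 (-1.03), miR-10a-5p (-0.96), miR-181a (-0.85), and let-7e (-0.55), which were lower, and miR-16 (0.67) and miR-374 (0.64), which were higher. All 44 kept their sign in this fit, at a median of 62.2% of the size. miR-19a stood at 1.40 (adjusted p = 0.052), miR-21 at 0.58 (adjusted p = 0.131), and miR-192 at 0.36 (adjusted p = 0.237), so that these rises were no longer called. The slope of this covariate came from depth differences within the 8 groups of untreated animals.

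The same contrast in EtOH-fed rats gave 53 calls (37.1%), 31 higher and 22 lower, and compared other animals. Both contrasts came from one fit of the 24 untreated animals and shared its estimate of spread, so their calls are not independent. A total of 36 miRNAs were called in both diets with the same sign and 0 with opposite signs, or 81.8% of the CHO calls and 67.9% of the EtOH calls. All 21 miRNAs that rose in CHO-fed rats were called higher in EtOH-fed rats too, and 15 of the 23 that fell were called lower. Depth also moved with time in EtOH-fed rats, with mean totals of 134754 at 6 h and 228980 at 72 h. The ranges overlapped there, at 97827 to 196972 and 163533 to 267582. With log10 total count as a covariate, 38 miRNAs were called in EtOH-fed rats. Over the 143 miRNAs the differences of the diets correlated with r = 0.82 (rho = 0.80), a description across miRNAs that share libraries and depth. miR-19a (2.38 in CHO and 2.64 in EtOH), miR-335 (1.50 and 1.51), miR-21 (1.21 and 1.14), miR-16 (1.14 and 1.31), and miR-181a (-1.18 and -1.33) stood near each other in the 2 diets.

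The other 8 CHO calls, all falls, were not called in EtOH-fed rats: miR-451, miR-144, miR-326, miR-598-5p, miR-208b-3p, miR-532-3p, miR-196b, and miR-10a-5p. The red blood cell miRNAs had the smallest unadjusted p for a difference between the diets. In EtOH-fed rats miR-451 went from 9.08 ± 0.29 (SD, n = 3) at 6 h to 8.83 ± 0.70 at 72 h, a difference of -0.25, and miR-144 from 9.44 ± 0.33 to 9.74 ± 0.82, a difference of 0.30. The EtOH-fed animals at 72 h were spread over 8.03 to 9.30 for miR-451 and so overlapped those at 6 h. Tested directly, the CHO difference minus the EtOH difference was -1.51 for miR-451 (95% interval -2.40 to -0.62, unadjusted p = 0.00181 by limma) and -1.74 for miR-144 (95% interval -2.86 to -0.62, unadjusted p = 0.00381 by limma), but with adjusted p of 0.259 and 0.273 neither was called. The third smallest p was that of miR-350 (0.14 in CHO and 0.92 in EtOH, adjusted p = 0.389). By limma 0 of 143 miRNAs were called for a difference between the diets, and 8 had an unadjusted p under 0.05. Without EtOH replicate 4_10 at 72 h, the 2 red blood cell miRNAs were called (miR-451 at -1.91, adjusted p = 0.00898, and miR-144 at -2.21, adjusted p = 0.0166). No other omission and no other setting gave a call for a difference between the diets. This animal is named only because its omission changed the result.

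**Figure D4:**
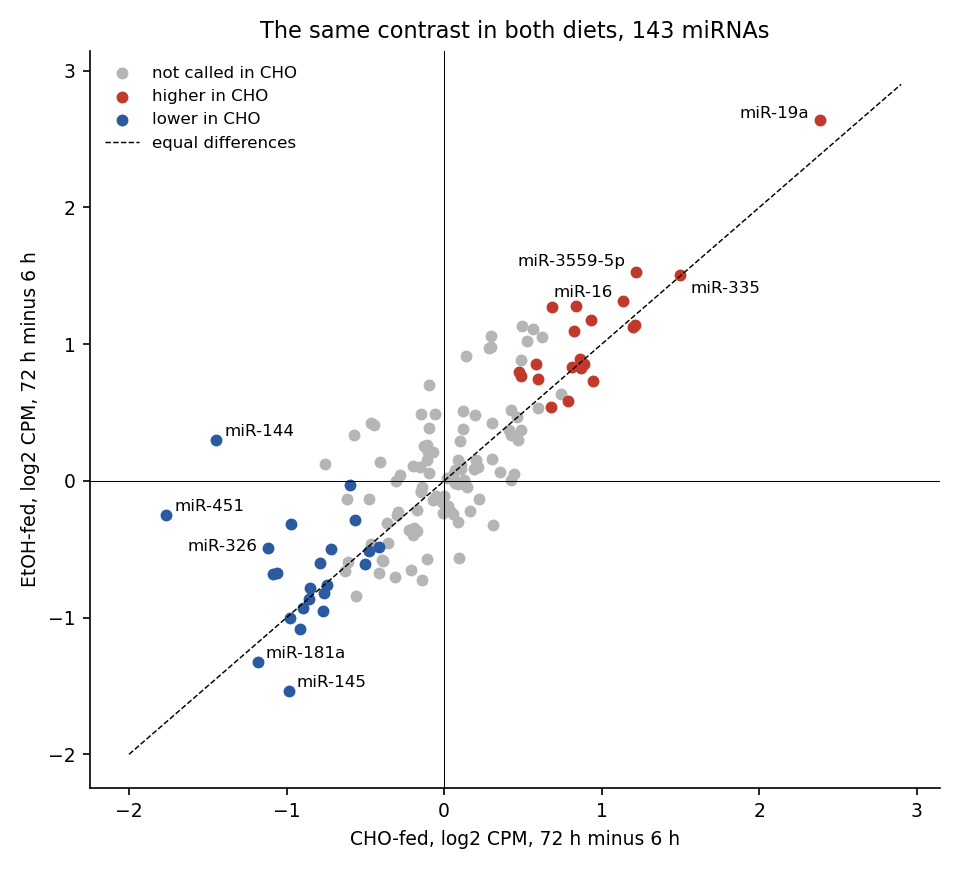
Difference between 72 and 6 h in EtOH-fed rats (y axis) against that in CHO-fed rats (x axis), both in log2 CPM with 3 animals per group, for 143 miRNAs coloured by their call in CHO. The dashed line marks equal differences. Most coloured points follow it (r = 0.82 over all), and miR-451 and miR-144 lie far to the left at -1.76 and -1.44 in CHO but at -0.25 and 0.30 in EtOH.

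Levels in CHO-fed rats at 0 and 24 h are set beside these as a description, since those animals belong to sets 1 to 3 and the set cannot be told apart from the time. For 16 of the 21 miRNAs that rose, the mean at 6 h lay below that at 0 h, and for all 21 the mean at 72 h lay above it. For 20 of the 23 that fell, the mean at 6 h lay above that at 0 h, and for all 23 the mean at 72 h lay below it. These miRNAs were chosen for their difference between 6 and 72 h, which favours a 0 h mean between the others. The 0 h mean lay between them for 36 of the 44 called miRNAs and for 27 of the 99 not called. In the order 0, 6, 24, and 72 h, miR-19a stood at 10.30 ± 1.43, 8.77 ± 0.26, 11.26 ± 0.13, and 11.15 ± 0.36 (mean ± SD, n = 3 each), so the level before surgery was both intermediate and widely spread. miR-21 stood at 14.26 ± 0.69, 14.03 ± 0.37, 15.31 ± 0.26, and 15.24 ± 0.14, high at both late ones. miR-16 was at 13.89 ± 0.39, 14.11 ± 0.31, 14.52 ± 0.44, and 15.25 ± 0.10 and was highest at 72 h. miR-181a was at 12.38 ± 0.22, 12.71 ± 0.13, 11.69 ± 0.06, and 11.52 ± 0.34, low at both late times. miR-451 was at 9.49 ± 0.11, 9.53 ± 0.30, 9.10 ± 0.46, and 7.77 ± 0.29, and its 72 h animals stood apart from the other 3 times.

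**Figure D5:**
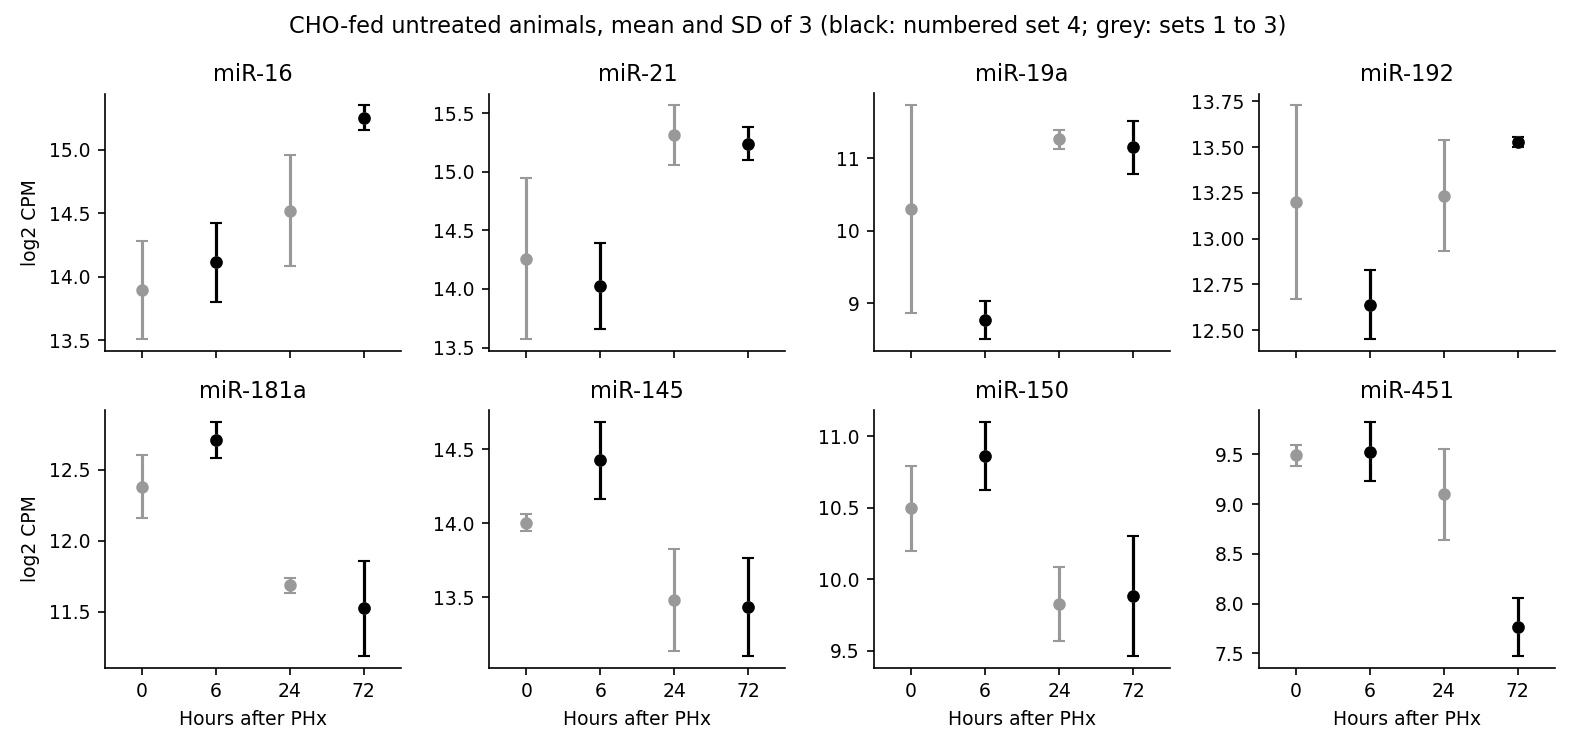
Mean and SD (3 CHO-fed untreated animals per point) of log2 CPM at 0, 6, 24, and 72 h for 8 miRNAs, with equal spacing of the times. Black points are the 2 groups compared (set 4) and grey points belong to sets 1 to 3. miR-21 and miR-19a are as high at 24 h as at 72 h, whereas miR-16 is highest and miR-451 lowest at 72 h, at 15.25 and 7.77.

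The study's stellate cell lists name miRNAs that change when these matrix-forming cells of the liver are activated in culture. Of the list that rises on activation, 14 of 16 members were in the table under the listed names, and 2 were called higher and 3 lower, with a median of -0.16. Of the list that falls, 21 of 23 were in the table, and 4 were called higher and 3 lower, with a median of 0.20. Over all miRNAs 14.7% were called higher and 16.1% lower, and nothing is read from these counts about the lists.

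The base composition of the called miRNAs differed in the same order as their direction. Among those with a matched sequence, the median GC content was 40.9% for the 19 called higher, 47.8% for the 19 called lower, and 45.5% for the 69 not called. Over the 107 matched miRNAs the difference between 72 and 6 h correlated with GC content at r = -0.29, and in EtOH-fed rats at r = -0.35. The corresponding r was 0.47 for 6 h against 0 h in CHO-fed rats and 0.01 for 72 h against 0 h. The animals at 0 h belong to other numbered sets than those at 6 and 72 h, so set and time cannot be told apart here. The same animals at 6 h also enter the 72 against 6 h and 6 against 0 h differences with opposite sign. That sharing by itself favours r of opposite sign, and which animals carry the relation was not tested. These are descriptions across miRNAs of the same libraries, and the part of GC content in the results was not tested.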

How the data were processed

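Liver RNA was counted with the NanoString nCounter assay. The authors deposited log2 CPM values for 143 miRNAs, made by TMM scaling and the voom transformation. Whole counts were recovered from the pseudocount of 0.5, and in all 48 samples every count lay within 0.001 of a whole number. In R 4.3.3, limma 3.58.1 fitted the deposited log2 CPM with a mean for each of the 8 groups of the 24 untreated animals, no covariate, two-sided tests, and Benjamini-Hochberg adjustment over all 143 miRNAs, called under 0.05. The fit was tested on simulated data. Exact permutation tests used scipy 1.17.1. Totals, recovered as above, limit precision most for miRNAs under about 50 counts. Intervals cover the spread between animals only.

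The miRNAs named were the 12 higher and 12 lower with the largest differences among called miRNAs without overlap, the 3 with the smallest p for a difference between diets, and members of family and cell type lists and of the study's stellate cell lists. Pattern lists of the study that had been planned for description were shown in the sources used here as a picture and were not used. The other called miRNAs and those just outside the threshold were named after their values were seen. The comparison and the lists were chosen with earlier results of these data known. miRNAs were placed in one genomic cluster when within 10000 bases in GRCr8. Alternatives covered scaling, background, filters, weights, samples, depth, and omission of each animal. Saline and AM21 animals were left out of the fit.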

Additional observations from a re-analysis of the deposited data

How the results depend on the processing

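None of the 44 calls changed sign under any of the 15 other settings tried. For most settings the sign could not have changed. Omitting 1 animal cannot reverse groups that do not overlap, and a count filter, a trended prior, and fits of fewer groups keep the group means. miR-144, miR-145, miR-16, miR-181a, miR-374, and miR-451 were called under all 15 settings, and 13 more lost the call with depth as a covariate alone. Every other called miRNA lost it without at least 1 animal. RLE size factors, scaling to the 100 highest probes, a filter of 50 counts in 3 animals (131 miRNAs), voom weights, a trended prior, the groups compared alone, and set 4 alone gave 41 to 53 calls, and background subtraction 31, of which 30 were among the 44. Scaling to the 100 highest probes moved the median of all miRNAs to -0.12, so that differences there are read against that shift. Log10 total count as a covariate left 8 calls, and within set 4, a fit chosen after seeing the data, 15. Omitting 1 animal gave 23 to 42 calls, with 23 without 6 h replicate 4_1, 24 without 4_2, and 25 without 72 h replicate 4_9. For the difference between diets, omissions gave 0 calls, except for 2 without EtOH 72 h replicate 4_10. With the covariate, the uncalled miR-194 went to -0.0398, miR-126 to -0.0302, miR-143 to -0.0276, miR-181c to 0.0668, and miR-351 to 0.109, and within set 4 miR-122 went to -0.214. miR-532-5p went to -0.0402 with the 100 highest probes. The cause of these moves was not tested. No paired analysis was possible because the animals at 6 and 72 h carry different numbers within set 4. Where an omission left 2 animals, they were assumed to vary like the other groups.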
